A study of Rattus norvegicus with 241 samples.

Results

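CD45+ leukocytes sorted from mammary glands of young ACI rats at day 0, on the day treatment stopped, were compared between 3 rats given TGFBRi and 3 given vehicle. They are 6 of the 241 samples of the series, and of its 202 bulk RNA-seq samples, chosen by strain, age, sorted fraction, day and treatment, a rule that uses no measured value. All rats were virgin ACI females, an inbred strain in which estrogen induces mammary tumors, dosed by oral gavage 2 times a day for 10 days from 35 days of age, around puberty. TGFBRi rats received 75 mg/kg of LY2157299 (galunisertib), a small-molecule inhibitor of the kinase of the type I TGFβ receptor, and vehicle rats the carrier of carboxymethylcellulose, sodium lauryl sulfate and povidone on the same schedule. Glands were digested to single cells, some suspensions were frozen before sorting, and live cells were stained for CD24, CD29, CD31 and CD45. The same rats gave basal and luminal epithelial libraries, which served here to measure epithelial transcripts in the leukocyte libraries. Each library is the sorted cells of 1 rat. The p-values of the main test measure the spread between rats within groups, pooled over the 18 CD45+ libraries of day 0, day 7 and day 14.

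CD45, encoded by PTPRC, is the phosphatase carried by all leukocytes. The gland at puberty holds macrophages, dendritic cells, T and B lymphocytes, mast cells and, in small numbers, neutrophils. Neutrophils make the proteins of their granules in sequence while they mature in the bone marrow: myeloperoxidase and elastase of the primary granules come before the proteins of the secondary granules, and circulating cells carry large amounts of the calcium-binding proteins S100A8 and S100A9. TGFβ is secreted in a latent form that latent TGFβ binding proteins (LTBPs) attach to the matrix, signals through TGFBR1, TGFBR2 and SMAD proteins, and is known for raising collagen and other matrix genes in fibroblasts and restraining the activation of leukocytes. The transcript levels below describe mixed cells, in which fewer cells of a type and less RNA per cell cannot be told apart.

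Among genes ranked by size of change (called genes, mean of at least 50 normalized counts, no overlap between groups) the largest rise after TGFBRi was in NGP, neutrophilic granule protein, followed by PGLYRP1, a granule protein that binds bacterial peptidoglycan. S100A9 had the smallest adjusted p of the 10 largest rises (limma). The promoters of NGP, PGLYRP1 and S100A9 are shown because these genes moved together, each from 250 bases before to 50 bases after the transcription start in the RefSeq annotation of GRCr8, a later build than the rn6 to which the reads were aligned. Capitals mark the sequence TTGCNNAA, a core of sites bound by C/EBP factors, which act in granulocyte development, on either strand. The 3 windows lie at chr8:119272355-119272654 on the plus strand (NGP), chr2:178490573-178490872 on the minus strand (S100A9) and chr1:87659613-87659912 on the plus strand (PGLYRP1).
NGP: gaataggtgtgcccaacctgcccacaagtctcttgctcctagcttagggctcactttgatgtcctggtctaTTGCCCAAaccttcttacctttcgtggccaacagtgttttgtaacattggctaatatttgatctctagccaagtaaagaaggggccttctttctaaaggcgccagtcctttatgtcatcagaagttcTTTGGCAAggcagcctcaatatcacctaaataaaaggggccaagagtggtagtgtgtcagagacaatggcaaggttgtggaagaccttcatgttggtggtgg
S100A9: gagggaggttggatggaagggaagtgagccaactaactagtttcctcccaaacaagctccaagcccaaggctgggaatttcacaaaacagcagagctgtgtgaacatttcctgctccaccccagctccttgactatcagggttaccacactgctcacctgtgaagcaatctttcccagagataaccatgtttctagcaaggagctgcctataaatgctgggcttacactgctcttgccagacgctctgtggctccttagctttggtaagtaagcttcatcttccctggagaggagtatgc
PGLYRP1: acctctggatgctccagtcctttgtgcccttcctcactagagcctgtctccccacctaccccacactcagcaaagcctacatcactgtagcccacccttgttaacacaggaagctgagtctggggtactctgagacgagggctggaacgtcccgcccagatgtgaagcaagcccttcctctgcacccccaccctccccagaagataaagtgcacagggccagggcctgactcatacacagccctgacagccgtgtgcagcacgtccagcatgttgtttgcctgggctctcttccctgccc
The NGP window holds 2 matches, starting 179 and 52 bases before the transcription start, and the other two windows hold 0. Of the 10 genes with the largest rises, 8 were found in the table and 2 held a match, NGP and ZFP217, against 3547 of all 33469 promoters of this length (10.6%). A match is a description of letters only.

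The 6 libraries held 18582241 to 24921141 reads on genes and 11646 to 13373 genes above 0. Across genes, TGFBRi libraries correlated with each other at 0.950 to 0.960 (Pearson's r of log2 normalized counts, as a description over genes), and vehicle 2 and 3 at 0.927. Vehicle 1 stood apart, with 0.869 and 0.874 against vehicle 2 and 3 and 0.876 to 0.894 against the TGFBRi libraries. Vehicle 3 correlated at 0.919, 0.939 and 0.945 with TGFBRi 1 to 3, so that the vehicle libraries did not form a group of their own across all genes. Vehicle 1 was rich in lymphocyte transcripts, with 14053 normalized counts of CD3E, of the T cell receptor complex, where vehicle 2 and 3 had 511 and 757. Vehicle 2 held the least PTPRC, 126 CPM (reads scaled to the library total) against 416 to 857 in the other libraries, and its 20 most abundant genes took 24.4% of its reads against 14.0 to 18.5%. The pan-leukocyte list as a whole did not follow PTPRC. Its 17 tested genes summed to 265007 normalized counts in vehicle 2, in a range of 190490 to 271179 over the 6 libraries. Calls that changed without vehicle 1 or vehicle 2 are given with and without them for the genes and lists named.

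**Figure D1:**
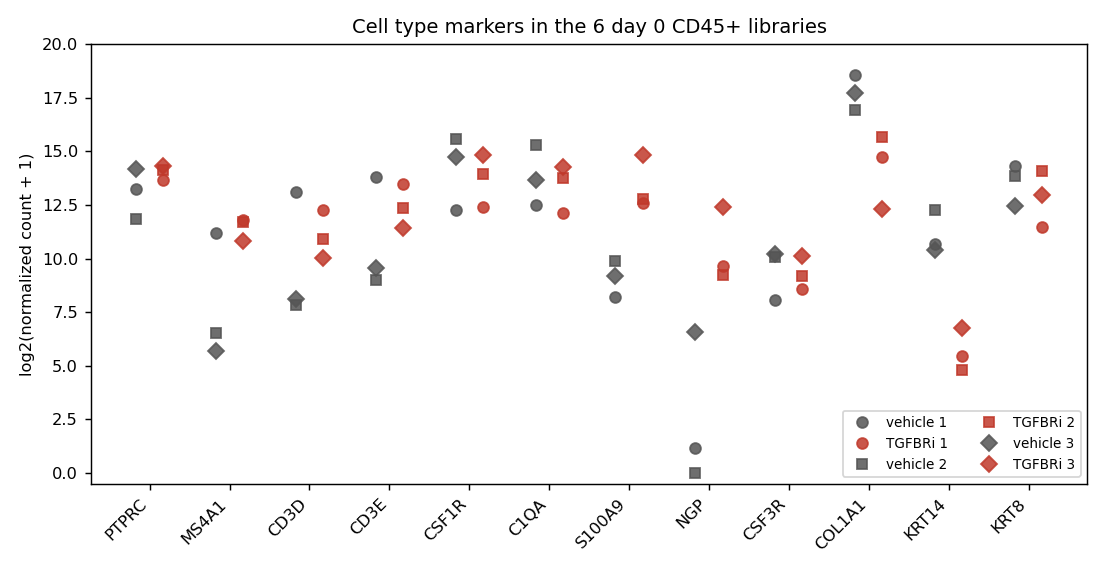
Log2 of normalized count plus 1 of 12 cell type markers (x axis) in each of the 6 day 0 libraries, with gray symbols for vehicle and red for TGFBRi rats. Vehicle 1 lies with the TGFBRi libraries for MS4A1, CD3D and CD3E, while all 3 vehicle libraries lie apart from TGFBRi libraries for S100A9, NGP, COL1A1 and KRT14.

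All 6 libraries carried the leukocyte transcript PTPRC, and all carried transcripts of other cells. KRT14, a keratin of basal (myoepithelial) cells, had 1661, 4959 and 1362 normalized counts in vehicle rats 1 to 3 and 42.7, 27.1 and 105.9 in TGFBRi rats 1 to 3. KRT5, its partner in the keratin filament, had 318, 1345 and 320 against 12.8, 12.1 and 15.4. CNN1, a calponin of smooth muscle and myoepithelial cells, had 776, 2705 and 801 against 28.2, 37.4 and 28.7. Vehicle 2 was the highest library for each gene and no TGFBRi library reached the lowest vehicle library. Log2 fold changes were −5.46 ± 0.57 (SE) for KRT14, −5.17 ± 0.64 for KRT5 and −5.21 ± 0.59 for CNN1 (limma, adjusted p = 1.21e-04, 5.78e-04 and 2.27e-04), and the calls held with any 1 rat left out.

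Expressed as CPM relative to the basal library of the same rat, KRT14 stood at 1.36, 3.17 and 1.54% in vehicle rats and 0.177, 0.0517 and 0.130% in TGFBRi rats. For KRT5 the shares were 0.985, 3.20 and 1.16% against 0.215, 0.0827 and 0.0884%. CNN1 gave 1.28, 3.06 and 1.37% against 0.224, 0.0952 and 0.0985%. The 3 genes differed within a rat by less than the groups did. Their mean was 1.90 ± 1.08% with vehicle and 0.129 ± 0.0675% with TGFBRi (SD, n = 3), and the groups did not overlap. With the deposited scaling in place of CPM the vehicle mean was 3.32%. With 17 genes at least 100 times higher in basal than in CD45+ cells in place of the 3 markers, the library median was 1.19% in vehicle 1 and 0% in vehicle 2, vehicle 3 and all TGFBRi rats. Choosing genes by this ratio, in vehicle rats of day 7 and day 14, keeps out those carried over at the level of the markers. At day 7 the vehicle median was also 0%, where the markers averaged 4.65%, so that this measure cannot decide whether the groups differed. All 3 markers were lower in the basal libraries of TGFBRi rats. KRT14 had 1178, 2541 and 3365 CPM there against 5325, 5364 and 3794 in those of vehicle rats. KRT5 had 292, 712 and 723 against 1409, 1445 and 1177, and CNN1 615, 1903 and 1204 against 2638, 3038 and 2510. The shares of TGFBRi rats are thus taken against lower levels. Whether those levels reflect the basal cells or other cells in those libraries was not tested. The luminal keratin KRT8 behaved differently, at 8.76, 4.88 and 2.69% of the same rat's luminal library in vehicle and 1.34, 6.84 and 2.49% in TGFBRi rats, with overlapping groups.

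**Figure D2:**
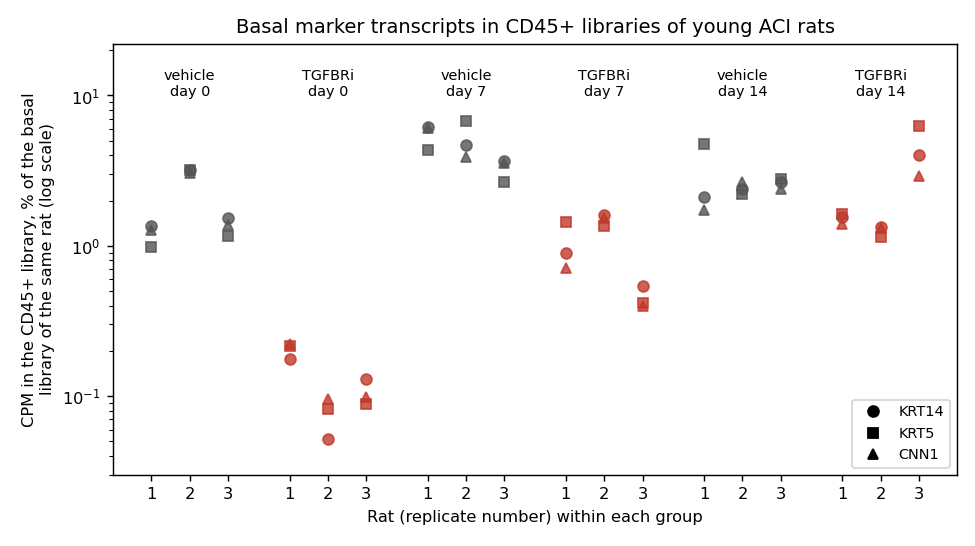
Share of KRT14, KRT5 and CNN1 in each CD45+ library as a percentage of the basal library of the same rat (CPM, log axis), for the 18 young ACI rats by day and treatment. The 3 TGFBRi rats of day 0 have the lowest values, with a mean of 0.129% against 1.90% in day 0 vehicle rats, 0.987% in TGFBRi rats of day 7 and 2.40% in those of day 14.

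Of the 25 genes of the basal epithelium list, 21 were tested and 13 fell, against 2.01% of all 14761 genes tested that were lower (2.85% called in either direction). The list had a median log2 fold change of −4.18, where all genes had −0.04, and its summed level was 8935 to 26715 in vehicle and 613 to 1913 in TGFBRi libraries. KRT17 fell by 5.31, KRT15 fell by 5.40 and ACTG2, a smooth muscle actin, fell by 5.30 in log2 units (adjusted p = 1.24e-04, 5.78e-04 and 6.29e-04). In vehicle libraries the 13 called genes stood at 1.03 to 3.25% of the basal libraries, with a median of 1.97%, close to the values of KRT14, KRT5 and CNN1. With 1 rat left out, 10 to 14 members were called. Among 27 luminal epithelium genes 0 were called (limma; 9 with unadjusted p under 0.05, 0 by edgeR and 3 by DESeq2), with a median of −0.77. Without vehicle 3 KRT19, CITED1 and SPINT2 of this list were lower (−1.77, −3.03 and −1.10), against 3.2% of all genes in that fit, and 1 member was lower without TGFBRi 2. Grouping all genes by the sort in which day 7 and day 14 vehicle rats expressed them at least 10 times above the other sorts, 46 of 228 basal genes were lower and 0 higher, 4 of 176 luminal genes were lower, and 9 of 648 CD45 genes were lower and 8 higher. The CD45 shares, 1.39% lower and 1.23% higher, were near the 2.01% and 0.833% of all genes. The other 238 genes called lower belonged to no such group, as did 13619 of the 14761 genes tested.

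Of the genes called, 123 were higher and 297 lower after TGFBRi by the deposited scaling, and 201 and 197 by CPM, which moved the median log2 fold change of all genes from −0.04 to 0.09. Of all genes, 7.71% were higher and 8.79% lower with no overlap between the groups, the background for genes not called that are said below not to overlap. Of the 420 called genes 419 did not overlap, so that for a called gene the lack of overlap adds nothing to the call. A few genes of neutrophil granules and cytosol rose after TGFBRi, and most tested members of their lists did not pass the test. Of 14 secondary granule genes tested 4 rose and 0 fell, and of 9 tertiary granule and cytosol genes 2 rose and 0 fell, against 0.833% of all genes that were higher. The medians were 3.27 and 0.53, and the second turned to −0.22 without vehicle 1. Summed levels overlapped, at 50661 to 333726 normalized counts in vehicle and 105892 to 234755 in TGFBRi libraries for the secondary granule list and at 22113 to 62322 and 36791 to 109151 for the other. The called genes made up a small part of the first sum. It also holds LYZ2, which is among the genes of highest mean in the macrophage list, so that its overlap does not describe the called genes. S100A9 had 291, 950 and 585 normalized counts in vehicle and 6187, 7093 and 28616 in TGFBRi rats, a log2 fold change of 4.30 ± 0.65 (adjusted p = 0.00290). S100A8, which pairs with S100A9 as calprotectin, had 69.1, 165 and 160 against 1659, 1494 and 6401, a log2 fold change of 4.35 ± 0.71 (adjusted p = 0.00473). TGFBRi 3 was the highest library for each, and the lowest TGFBRi library was above the highest vehicle library. Both calls held with any 1 rat left out, with log2 fold changes of 3.60 to 4.71 for S100A9 and 3.67 to 4.72 for S100A8, and by edgeR (adjusted p = 0.00843 and 0.00745) and DESeq2.

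The calls of the secondary granule list and of the other granule genes named were less certain than those of S100A8 and S100A9. NGP had 1.23, 0 and 94.3 normalized counts in vehicle and 797, 603 and 5350 in TGFBRi rats (log2 fold change 7.84 ± 1.67, adjusted p = 0.0238). PGLYRP1 had 0, 10.5 and 7.59 against 153, 170 and 631 (5.79 ± 1.40, adjusted p = 0.0382). RETNLG, a resistin-like protein of granulocytes, had 12.3, 19.9 and 4.34 against 195, 432 and 1212 (5.36 ± 1.19, adjusted p = 0.0270). In all of them TGFBRi 3 was highest and the groups did not overlap. CD177, a surface protein of neutrophils, had 0, 14.0 and 0 against 70.8, 34.6 and 326 (5.25 ± 1.05, adjusted p = 0.0185). By edgeR and DESeq2 the adjusted p was 0.243 and 0.633 for CD177, so that neither count test called it, 0.0652 and 0.0471 for NGP, 0.0799 and 0.00179 for PGLYRP1, and 0.0369 and 1.87e-05 for RETNLG. These calls depended on the rats: without TGFBRi 3 the adjusted p was 0.0866 for NGP, 0.118 for PGLYRP1, 0.1004 for RETNLG and 0.0687 for CD177, and without TGFBRi 1 it was 0.0686, 0.1002, 0.0570 and 0.0570. Without vehicle 2 NGP had 0.108, PGLYRP1 0.0761 and RETNLG 0.0658, without vehicle 1 PGLYRP1 had 0.0729, and without TGFBRi 2 PGLYRP1 had 0.0771 and RETNLG 0.0648. With 1 rat left out, 2 to 7 genes of the 2 lists together were called against 6 with all rats.

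Other secondary granule genes had values that did not pass the test. CAMP, the cathelicidin precursor, had 4.94, 50.2 and 63.96 normalized counts in vehicle and 258, 184 and 1331 in TGFBRi rats (log2 fold change 3.89, adjusted p = 0.0511). LTF, lactotransferrin, had 0, 11.7 and 1.08 against 0, 3.74 and 23.2 (0.71, adjusted p = 0.865). In the tertiary granule list MMP9, gelatinase B, had 501, 119 and 126 against 682, 840 and 2019 (2.42, adjusted p = 0.0745). CAMP and MMP9 thus did not overlap between the groups, while LTF did. CAMP was called without vehicle 3 (4.52, adjusted p = 0.0289) and MMP9 without vehicle 1 (3.09, adjusted p = 0.0230). Of 10 primary granule genes 0 were called (limma; 1 with unadjusted p under 0.05, 0 by edgeR and by DESeq2): MPO, myeloperoxidase, stayed at 0 to 13.6 and ELANE, neutrophil elastase, at 0 to 12.1 normalized counts in all 6 libraries. Among 20 neutrophil receptor genes 0 were called (0 with unadjusted p under 0.05, 0 by edgeR and by DESeq2). CSF3R, the receptor of the granulocyte growth factor G-CSF, had 265, 1059 and 1186 in vehicle and 380, 578 and 1097 in TGFBRi rats, so that its groups overlapped. CXCR2, a chemokine receptor of mature neutrophils, had 0, 129 and 33.6 against 39.2, 69.2 and 75.0. Of 15 attractants of neutrophils such as CXCL1 and CXCL2 0 were called (3 with unadjusted p under 0.05, 0 by edgeR and 3 by DESeq2). In the granulopoiesis list CEBPD, a C/EBP factor, fell by 1.36 (3650, 4056 and 4050 against 934, 1686 and 2241, adjusted p = 0.0372) and CD34, a marker of stem cells and of vessels, fell by 2.45 in log2 units (212, 349 and 333 against 37.5, 63.5 and 60.7, adjusted p = 0.0228). Neither call held without TGFBRi 1 (adjusted p = 0.167 and 0.0956) or vehicle 2 (0.123 and 0.0882), and that of CEBPD did not hold without TGFBRi 2 (0.0726). GFI1 of this list was called higher, the opposite direction, without vehicle 1 (2.73, adjusted p = 0.0119) and without vehicle 3 (2.225, adjusted p = 0.0484). Those fits called 2.78% and 3.87% of genes higher.

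**Figure D3:**
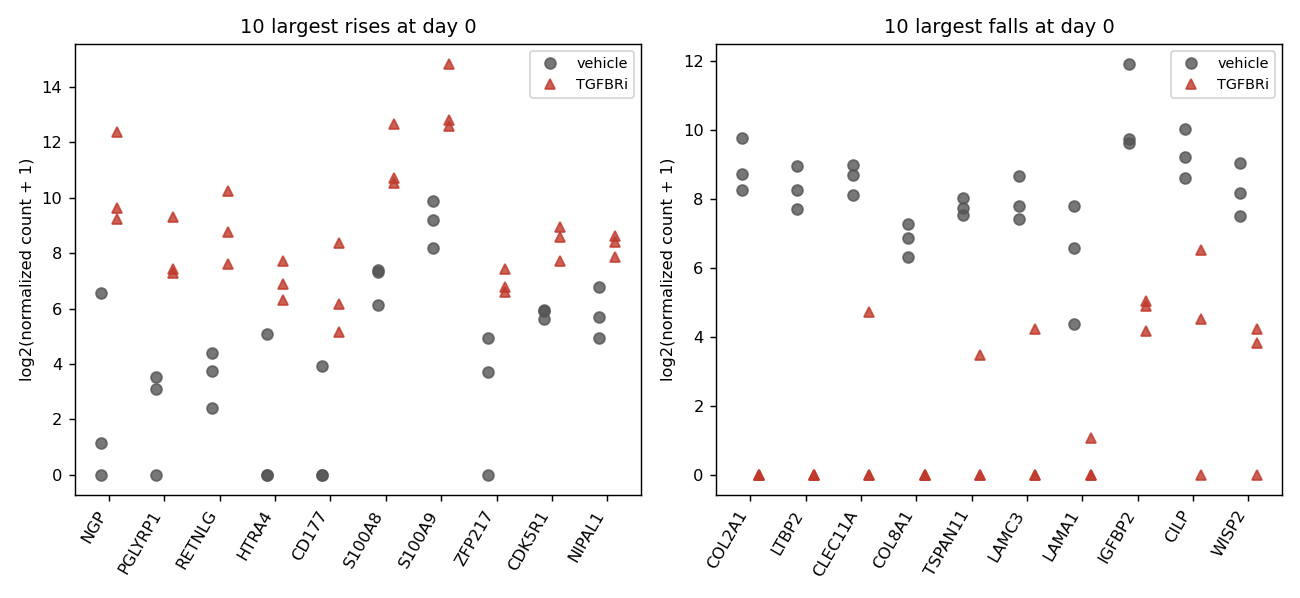
Log2 of normalized count plus 1 in each day 0 library for the 10 largest rises (left) and the 10 largest falls (right) among called genes, with gray circles for vehicle and red triangles for TGFBRi rats. Groups do not overlap for any of these genes by the rule that named them. COL2A1, LTBP2 and COL8A1 are at 0 in all 3 TGFBRi libraries.

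The remaining genes with the largest rises did not belong to the granule lists. HTRA4, a secreted serine protease, had 0, 0 and 32.5 normalized counts in vehicle and 116, 77.6 and 210 in TGFBRi rats (log2 fold change 5.27 ± 1.36, adjusted p = 0.0494), and kept its call only without vehicle 3 (adjusted p = 0.0889 to 0.198 without each other rat). Neither edgeR nor DESeq2 called HTRA4 (adjusted p = 0.263 and 0.112). ZFP217, a zinc finger protein, had 29.6, 0 and 11.9 against 96.4, 173 and 108.1 (4.06 ± 0.87, adjusted p = 0.0239). CDK5R1, an activator of the kinase CDK5, had 60.5, 58.4 and 48.8 against 377, 493 and 211 (2.59 ± 0.57, adjusted p = 0.0270). NIPAL1, a magnesium transporter, had 29.6, 51.4 and 109 against 393, 333 and 230 (2.47 ± 0.48, adjusted p = 0.0139). For these genes TGFBRi 3 was not the highest library, unlike for the granule genes, except for HTRA4. Without TGFBRi 1 the adjusted p was 0.0707 for ZFP217, 0.1003 for CDK5R1 and 0.0707 for NIPAL1. ZFP217 also lost its call without TGFBRi 2 or 3 (0.0721 and 0.0581), CDK5R1 without TGFBRi 2 or vehicle 2 (0.0935 and 0.0837) and NIPAL1 without vehicle 2 (0.0559).

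Of 27 CC chemokine and receptor genes 1 rose, against 0.833% of all genes, namely CCL22, a chemokine of dendritic cells and macrophages that attracts T cells bearing CCR4. It had 2349, 3254 and 1055 normalized counts in vehicle and 6774, 6456 and 9205 in TGFBRi rats (log2 fold change 1.88 ± 0.47, adjusted p = 0.0432). Every TGFBRi library was above every vehicle library, yet the call held only without vehicle 1 (adjusted p = 0.0408), and was 0.0619 to 0.118 without each other rat. Of 648 genes of the CD45 sort group 8 rose (1.23%), near the 0.833% of all genes. They were S100A9, NIPAL1, CCL22, CD69, SLAMF1, SIGLEC10, CD38 and XKRX, of which the last 5 are named after their values were seen. Another 9 genes of this group fell (1.39%, near the 2.01% of all genes that were lower) and are not named. The 8 genes that rose therefore do not describe the group. CD69, an early activation antigen of lymphocytes, had 16890, 2087 and 6043 against 26998, 30144 and 23378 (2.16 ± 0.54, adjusted p = 0.0431, and 0.0888 to 0.176 without vehicle 2 or any 1 TGFBRi rat). SLAMF1, a receptor of activated lymphocytes, had 1759, 645 and 640 against 3717, 4750 and 2209 (1.91 ± 0.41, adjusted p = 0.0239, and 0.0819 to 0.108 without vehicle 2, TGFBRi 1 or TGFBRi 2). In either of these 2 genes vehicle 1, the lymphocyte-rich vehicle library, was the highest of its group and still lay below each TGFBRi library. SIGLEC10, an inhibitory lectin, had a log2 fold change of 1.76 and XKRX of 3.95, and each lost its call without TGFBRi 1, TGFBRi 2 or vehicle 2 (adjusted p = 0.0527 to 0.0927 and 0.135 to 0.173). CD38, an ectoenzyme, had 1.06 and kept its call only without vehicle 1 (adjusted p = 0.0501 to 0.193 without each other rat). In the limma fit with the mean of the basal markers as a covariate the log2 fold changes were −1.16 for CD69, −0.06 for CD38 and −0.30 for XKRX, the opposite sign. Their adjusted p was 0.642, 0.973 and 0.962. S100A9, NIPAL1, CCL22, SLAMF1 and SIGLEC10 kept their sign but not their calls. The markers cannot be told apart from treatment in that fit.

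Part of the extracellular matrix genes fell after TGFBRi. Of 26 collagen genes 13 fell, of 14 basement membrane genes 7, of 29 matrix glycoprotein and proteoglycan genes 14, and of 34 genes of matrix remodelling 8, against 2.01% of all genes that were lower, with 0 higher in each list. The medians were −2.81, −2.35, −2.29 and −1.61, against −0.04 over all genes. The 4 lists together held 41 called genes. With 1 rat left out 14 to 41 were called, 14 without vehicle 2 (where 0.502% of all genes were lower), 16 without TGFBRi 1 and 19 without TGFBRi 3.

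Among called genes with a mean of at least 50 normalized counts and no overlap between the groups, the largest falls were in COL2A1 and LTBP2. COL2A1, the collagen of cartilage, had 305, 875 and 422 normalized counts in vehicle rats and 0 in each TGFBRi rat (log2 fold change −8.92 ± 0.51, adjusted p = 5.44e-08). Set against 3 reads per library it was at least 185-fold lower. LTBP2, a matrix protein related to the binding proteins of latent TGFβ, had 307, 493 and 208 against 0 in each TGFBRi rat (−8.31 ± 0.59, adjusted p = 9.80e-07), at least 116-fold lower. COL8A1, a short-chain collagen, had 155, 79.5 and 115 against 0 (−6.83 ± 0.98, adjusted p = 0.00231), at least 40.3-fold lower. No read of these 3 genes was seen in any TGFBRi library, and their calls held with any 1 rat left out. COL2A1 and LTBP2 were among the genes of the basal sort, and in vehicle rats 1 to 3 COL2A1 stood at 1.08, 2.75 and 1.47% of the same rat's basal library, the same order of rats as KRT14, while LTBP2 stood at 6.52, 5.59 and 5.40% and COL8A1 at 514, 96.7 and 156%.

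COL1A1, the main chain of fibrillar collagen, had 380137, 125431 and 216379 normalized counts in vehicle and 27464, 51193 and 5119 in TGFBRi rats (log2 fold change −3.49 ± 0.82, adjusted p = 0.0344). COL3A1, which forms fibrils with it, had 338041, 225138 and 351972 against 25542, 83704 and 5641 (−3.71 ± 0.79, adjusted p = 0.0238). TGFBRi 3 was the lowest library for either gene and the groups did not overlap. By edgeR neither COL1A1 nor COL3A1 was called (adjusted p = 0.0793 and 0.0810), while DESeq2 called both (0.00169 and 0.00202). Without TGFBRi 1, TGFBRi 3 or vehicle 2 both calls were lost (adjusted p = 0.0835, 0.113 and 0.0706 for COL1A1, and 0.0746, 0.0780 and 0.0658 for COL3A1), as was that of COL1A1 without vehicle 1 (0.0581). COL1A2 was listed at 0 to 1.23 in all 6 libraries, so that the deposited values do not follow its partner COL1A1. In vehicle libraries COL1A1 stood at 1154, 407 and 251% of the basal library of the same rat, and COL3A1 at 804, 230 and 330%, so that the leukocyte libraries held more of these transcripts than the basal ones, in contrast to KRT14. Among the 13 called collagens 10 stood at 10% or more of the basal libraries (76.9%) and 5 at 100% or more (38.5%), near the shares over all genes tested, 90.1% and 38.1%. COL4A1, a basement membrane collagen, had 4955, 11015 and 8043 against 1086, 832 and 1654 (−2.73 ± 0.41, adjusted p = 0.00284), with calls in all 6 fits with 1 rat left out.

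Among other matrix genes ELN, elastin, had 10658, 5118 and 7567 normalized counts in vehicle and 761, 123 and 114 in TGFBRi rats (log2 fold change −5.07 ± 0.75, adjusted p = 0.00280). BGN, the proteoglycan biglycan, had 1640, 1020 and 1465 against 176, 107.5 and 59.6 (−3.68 ± 0.58, adjusted p = 0.00360). IGFBP2, a binding protein of insulin-like growth factors, had 786, 3835 and 860 against 17.1, 31.8 and 28.7 (−5.72 ± 0.57, adjusted p = 7.73e-05). In these genes every vehicle library was several times above every TGFBRi library, and the calls held with any 1 rat left out. Vehicle 2 was the highest library for IGFBP2, as for KRT14, but the lowest vehicle library for ELN and BGN. IGFBP2 stood at 1.02, 3.15 and 1.23% of the basal libraries, near the values of KRT14. Of the 14 called matrix glycoprotein genes 13 stood at 10% or more (92.9%), near the 90.1% over all genes tested. Of the 7 called basement membrane genes 2 did (28.6%), with a median of 5.33%, nearer to the 1.97% of the called basal epithelium genes. SPARC, a collagen-binding protein, had 79588, 44397 and 72244 against 11266, 12028 and 2635 (−3.16 ± 0.61, adjusted p = 0.0143, and 0.0508 without TGFBRi 3), whereas FN1, fibronectin, had 9015, 12336 and 21649 against 4374, 5569 and 16075 and did not pass the test (−0.87, adjusted p = 0.514).

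The laminin chains LAMA1 and LAMC3 fell with the basement membrane list, LAMA1 from 19.7, 223 and 95.4 to 0, 0 and 1.10 normalized counts (log2 fold change −5.90 ± 0.95, adjusted p = 0.00434) and LAMC3 from 221, 408 and 169 to 0, 0 and 17.7 (−6.55 ± 1.09, adjusted p = 0.00528). Both calls held with any 1 rat left out. Of the enzymes that shape the matrix, ADAMTS9, a protease of proteoglycans, fell from 120, 140 and 164 to 7.68, 14.0 and 14.3 (−3.48 ± 0.57, adjusted p = 0.00473). PCOLCE, an enhancer of procollagen processing, fell by 3.21 (adjusted p = 0.0239) and MMP23 fell by 3.38 in log2 units (adjusted p = 0.0139). PCOLCE lost its call without TGFBRi 1, TGFBRi 3 or vehicle 2 (0.0707, 0.0888 and 0.0673) and MMP23 without TGFBRi 3 or vehicle 2 (0.0515 and 0.0665). LOX and LOXL1, which cross-link collagen, had −1.69 and −2.19 and did not pass the test (adjusted p = 0.167 and 0.128). The other large falls were in genes outside these lists. CLEC11A, a lectin that acts as a growth factor, had 505, 417 and 276 against 0, 25.2 and 0 (−7.03 ± 0.98, adjusted p = 0.00173) and TSPAN11, a tetraspanin, had 184, 263 and 214 against 10.2, 0 and 0 (−6.61 ± 0.91, adjusted p = 0.00162), with calls that held with any 1 rat left out. CILP, a cartilage matrix protein, fell by 5.61 (adjusted p = 0.0270) and WISP2, a matricellular protein, fell by 5.57 in log2 units (adjusted p = 0.0181). Without TGFBRi 1 the adjusted p of CILP was 0.0664 and that of WISP2 0.0768, and CILP also lost its call without TGFBRi 3 (0.0738) or vehicle 2 (0.0919).

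**Figure D4:**
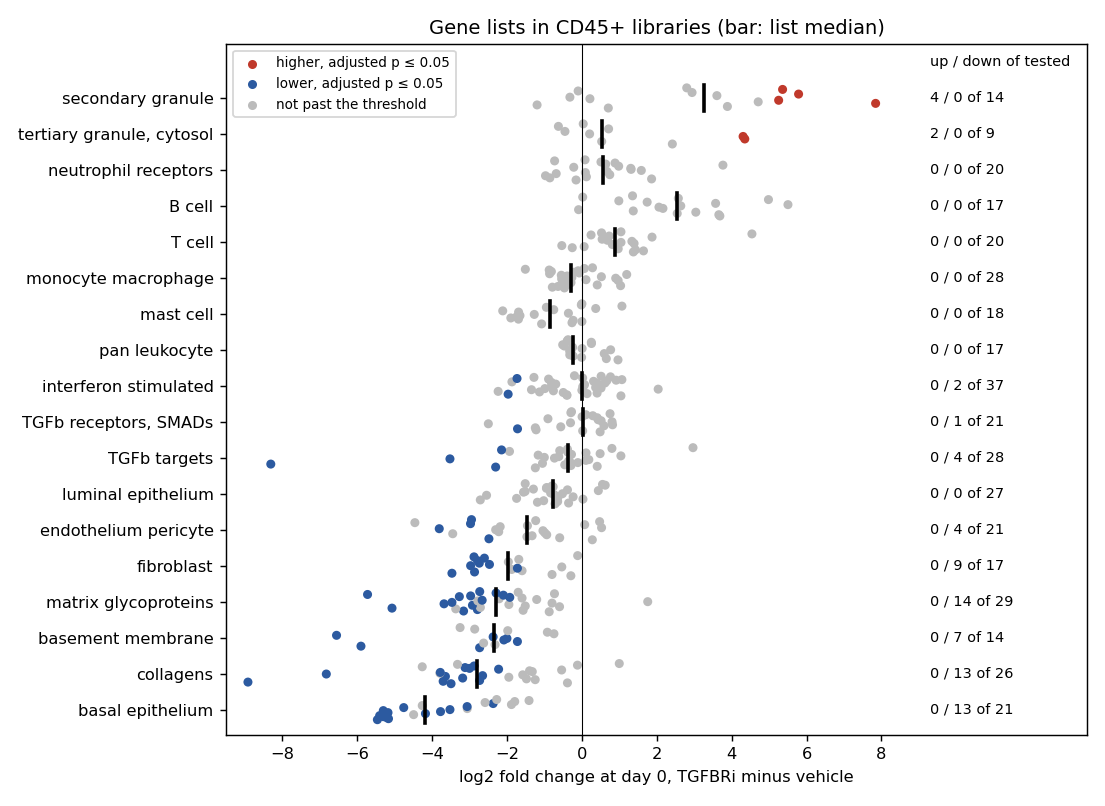
Log2 fold change of TGFBRi against vehicle at day 0 (x axis) for every tested gene of the lists named on the y axis, with the list median as a bar and called genes marked apart from the others. Medians lie at 3.27 for the secondary granule list and −4.18, −2.81 and −1.96 for basal epithelium, collagens and fibroblasts.

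Of 17 fibroblast genes 9 fell and 0 rose, against 2.01% of all genes that were lower, with a median of −1.96 and a summed level of 36266 to 80782 normalized counts in vehicle and 16970 to 21987 in TGFBRi libraries. MFAP5, a microfibril protein, had 4429, 1606 and 3058 against 384, 717 and 162 (−2.97 ± 0.68, adjusted p = 0.0313) and LUM, lumican, 2081, 1691 and 5399 against 113, 1116 and 108.1 (−3.47 ± 0.80, adjusted p = 0.0310). MFAP5 lost its call without TGFBRi 1, TGFBRi 3, vehicle 1 or vehicle 2 (adjusted p = 0.0534 to 0.110) and LUM without TGFBRi 1, TGFBRi 3, vehicle 2 or vehicle 3 (0.0520 to 0.135). DCN, decorin, had 16136, 11130 and 37238 against 10174, 11953 and 10465, with overlapping groups (−0.80, adjusted p = 0.546), and PDGFRA, a receptor that defines fibroblasts, 144, 5.84 and 519 against 63.99, 195 and 21.0 (−0.29, adjusted p = 0.948). DCN and PDGFRA thus did not pass the test, unlike MFAP5 and LUM. The count moved with the rats and the tool, with 0 called without vehicle 2 (0.502% of all genes lower), 1 without TGFBRi 1, 2 without TGFBRi 3 and 0 by edgeR, against 12 by DESeq2. Of 21 endothelial and pericyte genes 4 fell, against the same 2.01%. SELP, P-selectin of endothelium and platelets, had 3497, 2379 and 7220 against 679, 130 and 244 (−3.81 ± 0.67, adjusted p = 0.00843), a call that held with any 1 rat left out. RGS5, a pericyte gene, fell by 2.97 (adjusted p = 0.0160, and 0.0576 without TGFBRi 3), SOX18 fell by 2.95 (0.0346) and CDH5, VE-cadherin, fell by 2.48 in log2 units (0.0494). Without TGFBRi 1, TGFBRi 2 or vehicle 2 the adjusted p was 0.129, 0.129 and 0.101 for SOX18 and 0.123, 0.191 and 0.143 for CDH5, which also missed the threshold without vehicle 3 (0.0846). PECAM1, encoding the CD31 stained in the sort and carried by endothelium and leukocytes, had 1141, 890 and 1470 against 1411, 1420 and 1329. The part of basal, fibroblast and endothelial transcripts in the other falls was not tested. The fit with basal markers as a covariate, given in the closing section, cannot tell these markers from treatment. It holds no fibroblast or endothelial term.

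A minority of the TGFβ pathway genes fell. Of 16 genes of ligands and activation 4 fell, of 21 receptors and SMAD proteins 1 and of 28 targets 4, against 2.01% of all genes, with 0 higher in each list and medians of −0.67, 0.02 and −0.38. The ligand and activation genes called were LTBP2, LTBP3, LTBP4 and TGFB3. LTBP2 is also 1 of the 4 targets called, so that the counts of these lists, also with 1 rat left out, share this gene. Without TGFBRi 1 or vehicle 2 the counts were 2, 0 and 2, without TGFBRi 2 or TGFBRi 3 the targets also had 2, and without vehicle 1 they had 6 lower and 1 higher. LTBP4 had 2655, 3222 and 1888 normalized counts in vehicle and 261, 259 and 232 in TGFBRi rats (log2 fold change −3.33 ± 0.49, adjusted p = 0.00284), a call that held with any 1 rat left out. LTBP3 had 666, 849 and 460 against 115, 164 and 169 (−2.11 ± 0.43, adjusted p = 0.0198), and TGFB3, a ligand, 575, 394 and 517 against 34.98, 211 and 69.5 (−2.59 ± 0.60, adjusted p = 0.0322). Vehicle libraries were the higher ones throughout, without overlap. Without TGFBRi 1 or vehicle 2 the adjusted p was 0.0835 and 0.0845 for LTBP3 and 0.139 and 0.0837 for TGFB3, and TGFB3 also missed the threshold without TGFBRi 3 (0.0917). TGFB1, the ligand of most leukocytes, had 3730, 5576 and 3026 against 1919, 2118 and 2570 and did not pass the test (−0.86, adjusted p = 0.0836), but was called without vehicle 3 (−1.06, adjusted p = 0.0301).

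The kinase that the inhibitor blocks, TGFBR1, had 347, 1082 and 2407 normalized counts in vehicle and 799, 1312 and 2373 in TGFBRi rats (log2 fold change 0.49, adjusted p = 0.789). Its partner TGFBR2 had 2932, 1699 and 2618 against 2034, 2444 and 2735 (0.02 ± 0.28). Groups overlapped for both receptors. ENG, the co-receptor endoglin, had 1841, 3702 and 3055 against 687, 623 and 1358 (−1.72 ± 0.32, adjusted p = 0.0119, and 0.0615 and 0.0640 without TGFBRi 1 and vehicle 2). Among the targets, TAGLN, transgelin, had 883, 2623 and 1071 against 106.6, 124 and 120 (−3.52 ± 0.50, adjusted p = 0.00222), and CTGF, a matricellular protein, 174, 582 and 455 against 92.998, 52.3 and 76.1 (−2.30 ± 0.53, adjusted p = 0.0322). TAGLN and CTGF both belonged to the basal sort group and had vehicle 2 as their highest library, and TAGLN is also a member of the basal list. OLFML3 fell by 2.15 (adjusted p = 0.0494) and lost its call with any 1 rat left out (0.0521 to 0.147), while CTGF lost its call without vehicle 2 or any 1 TGFBRi rat (0.0780 to 0.145).

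The lymphocyte comparison turned on 1 vehicle library. Of 17 B cell genes 0 were called (limma; 13 with unadjusted p under 0.05, all higher, and 0 by edgeR and by DESeq2), with a median of 2.55. MS4A1, which encodes the B cell antigen CD20, had 2333, 89.97 and 49.9 against 3588, 3340 and 1807 (3.66 ± 0.97, adjusted p = 0.0520). Vehicle 1 thus lay at the level of the TGFBRi rats and vehicle 2 and 3 far below. Leaving vehicle 1 out, 13 of the 17 B cell genes were higher, with a median of 4.00, against 2.78% of 14624 genes called higher in that fit. For MS4A1 the difference was then 5.36 in log2 units (adjusted p = 1.33e-04). CD22, a B cell lectin, did not follow, with 3572, 4313 and 3195 against 3611, 3795 and 2986.

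Of 20 T cell genes 0 were called (limma; 1 with unadjusted p under 0.05, 0 by edgeR and by DESeq2), with a median of 0.89, and 5 without vehicle 1. CD3E had 14053, 511 and 757 normalized counts in vehicle and 11516, 5209 and 2770 in TGFBRi rats. Without vehicle 1 its log2 fold change was 3.14 (adjusted p = 0.0431) and that of FOXP3, the factor of regulatory T cells, 4.70 (adjusted p = 0.0136), as 1 of 5 genes of 17 in the regulatory T cell and checkpoint list that were then higher. Macrophage transcripts had the opposite order of vehicle rats. Of 28 macrophage genes 0 were called (1 with unadjusted p under 0.05, 0 by edgeR and by DESeq2), with CSF1R, the receptor that maintains macrophages, at 4897, 48728 and 27656 against 5460, 15791 and 28998. Vehicle 1 was low in macrophage and high in lymphocyte transcripts, and vehicle 2 the reverse, so that TGFBRi libraries lay between them or beside one of them.

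In the remaining lists few or no genes passed the test, to be read against 0.833% of all genes higher and 2.01% lower. Of 46 G2/M genes 3 rose, HMGB2, CKS2 and CTCF (log2 fold change 0.79, 0.94 and 1.17, adjusted p = 0.0432, 0.0496 and 0.0465), while the mitotic kinase gene CDK1 had 56.8, 185 and 101.9 normalized counts against 140, 115 and 55.2. HMGB2 and CTCF, chromatin proteins, kept their calls only without vehicle 1 or vehicle 3, and CKS2, a subunit of cyclin-dependent kinases, only without vehicle 3 (adjusted p up to 0.175, 0.157 and 0.148 without another rat). Of 37 interferon-stimulated genes 2 fell, IFIT1, which fell by 1.97, and IFITM3, which fell by 1.73 in log2 units (adjusted p = 0.0475 and 0.0307), with a list median of 0.00. IFIT1 kept its call only without vehicle 1 and IFITM3 only without TGFBRi 2 or vehicle 3 (adjusted p up to 0.182 and 0.126 without another rat). ISG15 had 1256, 869 and 630 against 2225, 2074 and 1303, the opposite direction, and did not pass the test (1.04, adjusted p = 0.155). Of 29 interleukin and cytokine genes 1 fell, IL33, an alarmin of stromal cells (−1.72, adjusted p = 0.0468, and 0.0668 to 0.149 without any rat but vehicle 1), and of 11 erythroid and platelet genes 1 rose, HBB-B1, a beta globin (0, 7.01 and 0 against 53.8, 18.7 and 23.2, log2 fold change 3.89, adjusted p = 0.0300, and 0.127, 0.0686 and 0.0556 without TGFBRi 1, TGFBRi 3 and vehicle 1), which neither edgeR nor DESeq2 called (adjusted p = 0.358 and 0.280). In 23 of the 41 lists limma called 0 genes, edgeR 0 and DESeq2 19. Beside those above they were the lists of pan-leukocyte genes (17 tested, 1 with unadjusted p under 0.05), dendritic cells (17 and 1), major histocompatibility complex class II (12 and 6) and class I (26 and 2), cytotoxic and NK cells (26 and 1), regulatory T cells and checkpoints (17 and 8), helper T and innate lymphoid cells (17 and 5), plasma cells (8 and 3), mast cells (18 and 4), eosinophils and basophils (9 and 0), adipocytes (12 and 1), immediate early genes (29 and 3), heat shock (15 and 4), glucocorticoid response (11 and 1), S phase (38 and 8) and complement (21 and 2). Their medians lay between −0.85 (mast cells) and 0.73 (regulatory T cells and checkpoints), and that of the mast cell list turned to 0.07 without vehicle 3. With 1 rat left out medians also changed sign for the pan-leukocyte, dendritic, cytotoxic and NK, plasma, eosinophil and basophil, adipocyte and complement lists.

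Without vehicle 1, several of these lists held called genes, named here after their values were seen, in a fit that called 2.78% of genes higher and 2.55% lower. Of 12 class II genes 4 were lower, RT1-BB, RT1-DA, RT1-DB1 and RT1-DB2, which encode chains that present peptides to T cells, with log2 fold changes of −1.37, −1.18, −1.23 and −1.24. Of 18 mast cell genes 3 were lower, the proteases MCPT1L1, TPSAB1 and TPSB2, with −3.02, −2.88 and −2.68. CCL22, a chemokine, and CCR4, CCR6, CCR7 and CXCR5, chemokine receptors of lymphocytes, were among the genes that were higher. In the CC list 4 were higher, CCL22, CCR4, CCR6 and CCR7, with 1.99, 2.81, 2.69 and 3.45. CCR7 and FSCN1 (1.75) were called in the dendritic list, CCR6 and CXCR5 (4.12) in the helper T list and MZB1 (5.94) and POU2AF1 (7.55) in the plasma cell list. Single genes were also called among attractants (LTB4R, −2.39), immediate early genes (FOSL2, −0.97), heat shock (HSPH1, 1.18) and S phase (MCM3, 1.31), and in the regulatory T cell list ITGAE was lower (−1.21). Leaving out vehicle 3 also gave calls in lists that had 0, in a fit that called 3.87% of genes higher and 3.2% lower. PTPRC was higher (1.51, adjusted p = 0.0352), as were CD274 of the checkpoint list (1.80), the T cell adaptor TRAT1 (5.45), the chaperones DNAJA1 and HSPD1 (1.12 and 0.81), the glucocorticoid receptor NR3C1 (1.12) and the S phase genes MCM4 and CASP8AP2 (1.28 and 2.71). TAPBP and PSMB10 of class I presentation (−0.87 and −1.04) and the primary granule gene BPI (−3.65) were lower. Without TGFBRi 1 there was 1 primary granule gene called higher and without TGFBRi 3 there was 1 adipocyte gene called lower.

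The day 0 pattern was then set beside day 7 and day 14 after the last dose, with other rats in each group (3 and 3 on each day). The CD45+ library of TGFBRi 3 at day 7 has a title that names day 9 and was placed by its other labels, and the basal and luminal libraries of a day 7 vehicle rat have a description that names treatment, against their titles. At day 7 and day 14 limma called 0 of 14761 genes (0%), with 631 and 725 with unadjusted p under 0.05 and 0 by edgeR. S100A9 ranged from 181 to 1111 normalized counts and S100A8 from 22.3 to 219 in the 15 other libraries, that is day 0 vehicle and all rats of the later days, below each day 0 TGFBRi library. The S100A9 difference was −0.48 at day 7 and 0.86 at day 14 on the log2 scale, and the test of the change in effect from day 0 did not pass (adjusted p = 0.185 and 0.108). NGP, PGLYRP1, RETNLG and CD177 likewise were above all 15 other libraries in every day 0 TGFBRi rat, with at most 94.3, 39.6, 105.5 and 14.0 in the others. Of the 123 genes called higher 74 lay above all 15 other libraries in each day 0 TGFBRi rat, and of the 297 called lower 222 lay below, against 419 and 494 of all genes tested. The calls themselves used the day 0 vehicle libraries and the spread in the later ones. These counts, and the positions of the granule genes above, therefore describe genes already selected and are no further evidence.

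The change in effect from day 0 passed the test for 2 genes at day 7 (0.0135% of genes) and 28 at day 14 (0.19%). The 2 genes at day 7 were COL2A1 and LTBP2, which also passed at day 14. COL2A1 had 850, 784 and 541 normalized counts in vehicle and 234, 141 and 163 in TGFBRi rats at day 7, and 526, 177 and 769 against 636, 392.3 and 653 at day 14. LTBP2 had 516, 331 and 608 against 86.05, 124 and 36.9 at day 7, and 246, 525 and 228 against 100.7, 134 and 422 at day 14. Each gene was thus present in all 12 libraries of the later days, lower in every TGFBRi than every vehicle rat at day 7, and overlapping at day 14. COL1A1 had 338250, 107383 and 335194 against 502814, 201580 and 250002 at day 7 and 139350, 324380 and 149346 against 861261, 167829 and 97005 at day 14, with log2 fold changes of 0.35 on each day. The basal markers had a mean share of the basal library of 4.65 ± 1.20% in vehicle and 0.987 ± 0.523% in TGFBRi rats at day 7 (SD, n = 3), without overlap. At day 14 it was 2.63 ± 0.22% and 2.40 ± 1.75%, with overlap. The collagen list, with a median of −2.81 at day 0, had −0.27 at day 7 and 0.36 at day 14, and the basal list, with −4.18, had −1.59 and −0.39.

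**Figure D5:**
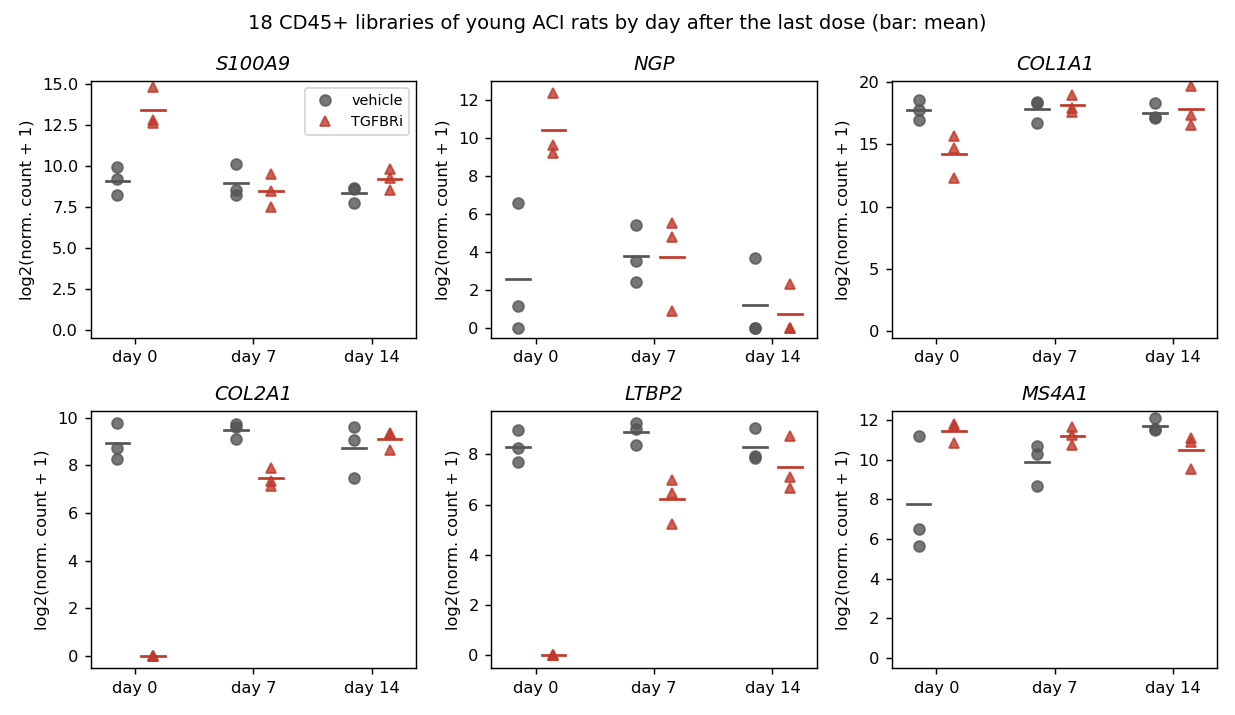
Log2 of normalized count plus 1 of S100A9, NGP, COL1A1, COL2A1, LTBP2 and MS4A1 in the 18 CD45+ libraries of young ACI rats by day after the last dose, with points for rats, bars for group means, gray for vehicle and red for TGFBRi. The day 0 TGFBRi rats lie above all others for S100A9 and NGP and below all others for COL1A1, COL2A1 and LTBP2.

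Young SD rats, an outbred strain given the same agents, dose and schedule from a younger age and sampled at day 0, gave 4 vehicle and 4 TGFBRi libraries of CD45+ cells, scaled separately by the authors. Of 13779 genes tested limma called 0 (0%), with 501 with unadjusted p under 0.05. S100A9 had 694, 192, 299 and 271 normalized counts in vehicle and 250, 476, 782 and 1047 in TGFBRi rats (log2 fold change 0.79, adjusted p = 0.870). NGP was at 0 in all vehicle rats and at 8.27, 1.39, 12.4 and 0 in TGFBRi rats. KRT14 had 678, 528, 2242 and 1261 against 938, 798, 427 and 393 (−0.75), and COL2A1 146, 153, 516 and 67.7 against 245, 61.3, 55.7 and 79.4 (−0.88). Groups overlapped for each of these genes, and a difference in effect between the strains was not tested.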

How the data were processed

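Bulk RNA-seq libraries of sorted CD45+ cells were made by the authors with a SMARTer low-input kit and sequenced on a NextSeq500. Per the labels and the submitters' processing notes, reads were aligned to rn6 with STAR 2.5.1b and counted without strand per UCSC refGene gene with HTSeq, genes with at least 10 counts were kept, and counts were normalized with DESeq2 1.30.1. The deposited signal is therefore a count divided by a size factor of the library, not a raw count. In all libraries used 100% of values were whole multiples of 1 step (tolerance 0.001), so that whole reads were recovered for depth, CPM and the count tests. The main test was kept on the normalized values as deposited, with count tests as alternatives.

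For the main test, log2(normalized count + 1) of the 18 young ACI CD45+ libraries (3 rats per day and treatment) was fitted in limma 3.58.1 (R 4.3.3) with trend and robust settings, for the 14761 genes summing to at least 10. The contrast was TGFBRi minus vehicle at day 0, with Benjamini-Hochberg adjustment over all genes and a threshold of 0.05, written as called. On this scale fold changes of low genes are understated. Changes in effect between days were tested as interactions, and young SD rats were fitted apart. Carry-over was CPM in the CD45+ library over CPM in the basal library of the same rat. Alternatives were edgeR 4.0.16 and DESeq2 1.42.0 on the recovered reads, which called 189 and 1042 genes, the day 0 libraries alone, CPM, other pseudocounts and filters, no trend, basal markers as a covariate, and each rat left out. The fits were also run on simulated data with a spread between libraries set in advance, which is no test of the calls given here. The 6 samples were selected by their labels, but this comparison and the members of the 41 gene lists were chosen with earlier results of these data known. Genes named were the 10 largest changes in each direction among called genes with a mean of at least 50 normalized counts and non-overlapping groups, KRT14, KRT5 and CNN1, and in each list the first 2 members, up to 4 called members with the largest changes and, where none was called, up to 3 with the highest mean. Other named genes were chosen after their values were seen. Replicates differed far beyond counting noise (lowest chi-square per degree of freedom 86.3), and gene lengths were not used, so that levels are not compared between genes. A few genes of these lists are not reported here by name.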

Additional observations from a re-analysis of the deposited data

Results flagged for a closer look

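The treatment effect at day 0 differed from that at day 7 in 2 genes and from that at day 14 in 28 (limma interaction, adjusted p of 0.05 or less), with different rats in each group. Against day 7, the difference in log2 fold change was −6.90 for COL2A1 (adjusted p = 4.89e-04) and −5.64 for LTBP2 (adjusted p = 0.0305). Against day 14 it was −9.31 for COL2A1 (adjusted p = 5.95e-06) and −7.52 for LTBP2 (adjusted p = 6.94e-04). Of the other matrix and secreted genes named, the difference against day 14 was −7.54 for CLEC11A, −7.06 for TSPAN11, −5.55 for IGFBP2, −5.48 for ELN, −4.48 for ADAMTS9, −4.41 for BGN, −3.28 for COL4A1 and −2.35 for ENG. Of the basal genes, it was −4.99 for KRT14, −5.02 for KRT15, −5.01 for KRT17, −4.75 for KRT5 and −4.59 for CNN1. All of these effects were more negative at day 0. S100A8 and S100A9 did not pass this test, with differences of 4.21 and 4.79 against day 7 (adjusted p = 0.230 and 0.185) and 3.94 and 3.45 against day 14 (adjusted p = 0.1005 and 0.108), and neither did COL1A1, with −3.85 against each day (adjusted p = 0.318 and 0.135).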

How the results depend on the processing

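The 6 day 0 libraries alone gave 29 called genes (2 higher, 27 lower), with 2 granule, 7 basal, 11 matrix, 1 fibroblast and 0 endothelial genes. edgeR gave 189 (63 higher, 126 lower), with 3 granule, 20 matrix, 0 fibroblast and 2 endothelial genes and 1 gene whose effect differed from day 7, and DESeq2 1042 (350 higher, 692 lower), with 7 endothelial genes. CPM gave 201 higher, 197 lower and 1 B cell gene, and a filter of 10 counts in 3 libraries 1 B cell gene. Without trend and robust settings 182 were called (45 higher, 137 lower), with 19 matrix, 1 fibroblast and 2 endothelial genes. With the mean of the basal markers as a covariate 0 were called in limma (1686 with unadjusted p under 0.05), that is 0 higher, 0 lower and 0 granule, basal, matrix, fibroblast or endothelial genes. These markers differ between the groups without overlap, so that they cannot be told apart from treatment in that fit. The covariate is made of KRT14, KRT5 and CNN1, so that their mean change in that fit is 0 by construction. A reversal among these genes is therefore not a result. The log2 fold change then reversed for ACTG2 (0.056), CTCF (−0.14), ENG (0.030), IFIT1 (1.37), KRT5 (0.68), TAGLN (0.19) and ZFP217 (−1.25), and for CD69 (−1.16), XKRX (−0.30) and CD38 (−0.055), while S100A9 had 6.83, COL1A1 −6.82 and COL2A1 −7.17. For the other settings the cause was not tested. Of 62 named called genes, 35 were called by edgeR, 59 by DESeq2, 56 with CPM, 37 without trend and robust settings, 17 with the 6 day 0 libraries alone and 23 with any 1 rat left out. Genes that edgeR did not call include COL1A1, COL3A1, CCL22, LUM, TGFB3, CDH5, SOX18 and CILP (adjusted p = 0.0571 to 0.123). CD69 was not called by edgeR either (0.102). With 1 rat left out 78 to 1043 genes were called (6 to 571 higher, 72 to 472 lower), with 2 to 7 granule, 10 to 14 basal, 14 to 41 matrix, 0 to 7 fibroblast, 2 to 6 endothelial, 0 to 13 B cell and 0 to 5 T cell genes, and 1 to 4 and 4 to 598 genes whose effect differed from day 7 and day 14. The lowest total came without TGFBRi 1 (78) and the highest without vehicle 3 (1043), with 87 without vehicle 2, 186 without TGFBRi 3, 248 without TGFBRi 2 and 779 without vehicle 1. The vehicle carry-over was 3.32% with the deposited scaling, and with 17 genes at least 100 times above CD45+ cells in basal cells the mean of the library medians was 0.398% with vehicle, from vehicle 1 alone (1.19%), and 0% with TGFBRi, as in vehicle 2 and 3. The choice of these 17 genes keeps out genes carried over at the level of the markers. No paired analysis was possible because the labels number animals separately in each group. Genes near 0 reads in 1 group are limited by depth.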
